A study of Arabidopsis thaliana with 16 samples.

Results

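As a leaf of Arabidopsis thaliana is warmed, its photosynthesis climbs to an optimum and then declines. The onset of that decline was described here by setting 4 arrays of leaves in which photosynthesis lay 20% below its optimum against 4 arrays of leaves at the optimum, 8 of the 16 arrays of the study. All plants were of the line Columbia, with no transgene or mutation named, and the RNA came from the first fully expanded leaf. Plants grew at 22 °C under a 10 h photoperiod, 350 µmol m-2 s-1 of light and 60% humidity. Temperature was raised from 22 °C by 2 °C every 10 min, up to 42 °C at most, until the wanted state was reached, and leaves were taken after a further 20 to 30 min in which photosynthesis settled. The states had been set from earlier gas exchange measurements, and the remaining 8 arrays hold a baseline at growth temperature and a state 30% below the optimum. The labels give no leaf temperature for a state, and a later state was also warmer and later in a curve of 3 to 4 h, so the effects of heat, of hours spent warming and of the hour of day cannot be told apart. The 4 arrays of a state come from randomly collected plants, and whether these were grown as separate batches is not said. A p-value for a probe set therefore reflects only how far such samples scatter within a state, pooled over the 4 states and all 16 arrays.

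Above its optimum temperature a leaf loses carbon fixation partly because Rubisco activase, the chaperone-like protein that keeps Rubisco free of inhibitory sugar phosphates, is itself sensitive to heat. Heat also unfolds proteins, and plant cells answer through heat shock factors, which switch on small heat shock proteins that hold unfolded proteins and HSP70, HSP90 and HSP100 machines that refold or release them. Unfolded proteins in the endoplasmic reticulum activate bZIP factors, some of them released from its membrane, which switch on folding genes of that compartment.

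The passage from the optimum to 20% inhibition changed 9477 of 22746 probe sets (41.7%) at an adjusted p under 0.05, the threshold for every use of "called", "rose" and "fell" below. Of these, 4269 (18.8% of those tested) were higher and 5208 (22.9%) lower at 20% inhibition, so that 45% of the calls were rises. With each array centred on its median the calls numbered 11476, of which 7129 were higher and 4347 lower (62.1% rises), because the array medians were 6.15 to 6.19 at the optimum and 6.07 to 6.13 at 20% inhibition. Changes of at least 2-fold were more evenly split, with 558 rises (2.45% of those tested) and 585 falls (2.57%). Large changes were mostly rises: 188 probe sets rose and 43 fell at least 4-fold, and 91 rose and 2 fell at least 8-fold. Over all probe sets the median log2 change was 0.026, or 0.094 after centring. Counted with 1 probe set per gene, 2543 of 13355 named genes (19%) rose and 2668 (20%) fell, with a median of 0.041, and these shares are the background for each gene group below.

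**Figure D1:**
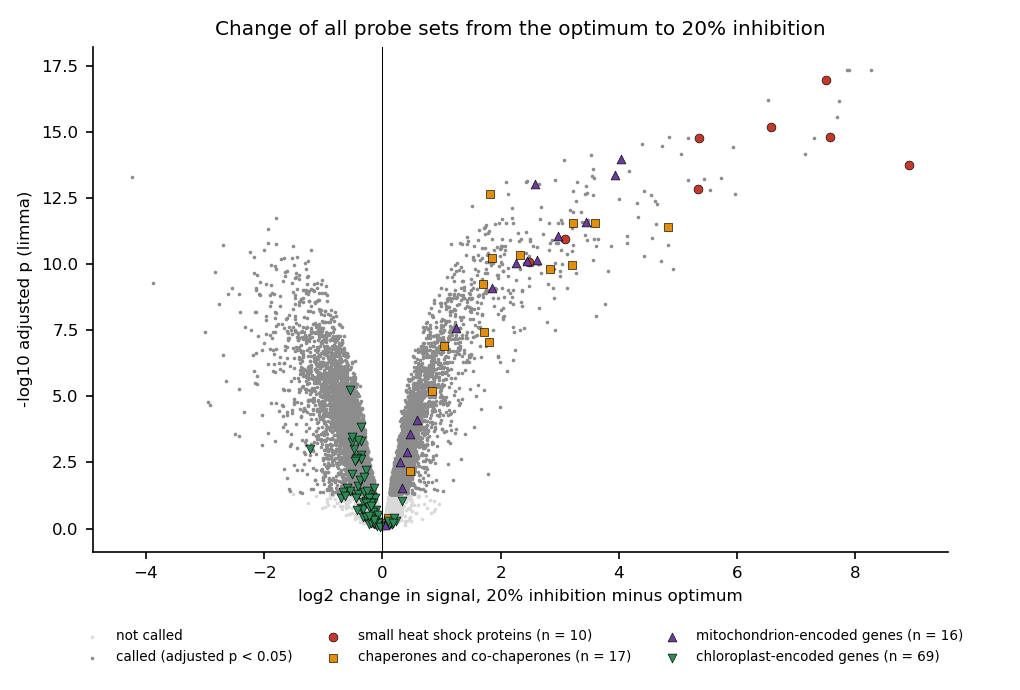
Change of each of the 22746 probe sets between the optimum and 20% inhibition, as the log2 change in signal (x axis) against −log10 of limma's adjusted p (y axis), with 4 gene groups marked. The small heat shock proteins and mitochondrion-encoded genes lie mainly to the right, the former up to a log2 change of 8.91, and 0 of 69 chloroplast-encoded genes were called higher.

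The array set holds leaf RNA as labelled as far as the named markers go. The Rubisco activase RCA, the 1 measured gene of 13 mesophyll markers listed, read 14.54 to 14.60 at the optimum and 14.35 to 14.47 at 20% inhibition on the log2 scale, close to the highest signal of the arrays (14.7). The mean of 4 measured root markers lay at 4.29 to 4.34 and 4.36 to 4.50, and that of 3 flower and pollen markers at 4.43 to 4.59 and 4.54 to 4.70, both near the lower end of the signals (3.25). In bulk leaf RNA fewer cells of a type and less RNA per cell cannot be told apart. Replicate 3 of 20% inhibition lay apart from its group, as described at the end, and counts of the lists below are also given without it where they differ. Where centring the arrays shifted the balance of a list, its centred counts are given too. Centring also moved the calls over all 22746 probe sets, from 4269 to 7129 rises and from 5208 to 4347 falls. The shares of 19% and 20% above are therefore no background for centred counts.

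Small heat shock proteins had the largest rises. The cytosolic class I member AT1G53540 read 5.97, 4.85, 4.76 and 4.52 on the 4 optimum arrays and 14.11, 14.10, 13.54 and 14.01 on those of 20% inhibition, in replicate order. It went from near the bottom to near the top of the array signals, with optimum replicate 1 the highest of its state and 20% replicate 3 the lowest of its own. Its log2 change was 8.91 ± 0.23 (SE, n = 4 against 4; adjusted p = 1.8e-14), 482-fold, a size that is approximate because both ends of the signal range limit it. ATHSP22.0 (AT4G10250), which works in the endoplasmic reticulum, read 4.93, 4.98, 4.90 and 4.83 and then 12.48, 12.59, 12.17 and 12.44, a log2 change of 7.51 ± 0.11 (182-fold, adjusted p = 1.1e-17). The family member AT1G52560 read 4.16 to 4.38 at the optimum and 11.42 to 12.08 at 20% inhibition (7.57 ± 0.16). The groups of arrays are far apart for each of these genes, and replicate 3 is the lowest 20% array in all 3.

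Other members rose from a higher start. The peroxisomal AT5G37670 rose by a log2 change of 6.57 ± 0.13, from 6.34 to 6.90 at the optimum to 13.09 to 13.29 at 20% inhibition. The mitochondrial AT5G51440 rose by 5.33 ± 0.16 and the cytosolic AT2G29500 by 5.35 ± 0.11. In all, 8 of 10 measured small heat shock proteins rose and 0 fell (median 5.34). AT5G54660 (0.09) and AT4G21870 (−0.10) did not pass. The latter was lower without replicate 3, with a log2 change of −0.38 (adjusted p = 0.0048).

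The family did not start together. From the baseline to the optimum ATHSP22.0 had changed by −0.08, AT1G52560 by 0.02 and AT1G53540 by 0.58, whereas the class III member AT1G54050 had changed by 3.75, AT5G51440 by 3.77 and AT2G29500 by 3.65. The step to 20% inhibition exceeded the preceding one by 7.59 for ATHSP22.0 (adjusted p = 1.3e-13), by 8.33 for AT1G53540 (3.3e-10) and by 1.70 for AT2G29500 (1.4e-05). In the test of this difference over all probe sets 5008 were called (22%), among them 7 of the 10 small heat shock proteins. From 20% to 30% inhibition ATHSP22.0 changed by 0.19 and AT1G53540 by 0.26. AT1G53540 and AT2G29500 each had a mean of 13.94 at 20% inhibition, near the highest signal of the arrays (14.7), which limits what further rise can be seen. The step described here differed from that following step in 5095 probe sets (22.4%), and in 8 of the 10 family members.

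**Figure D2:**
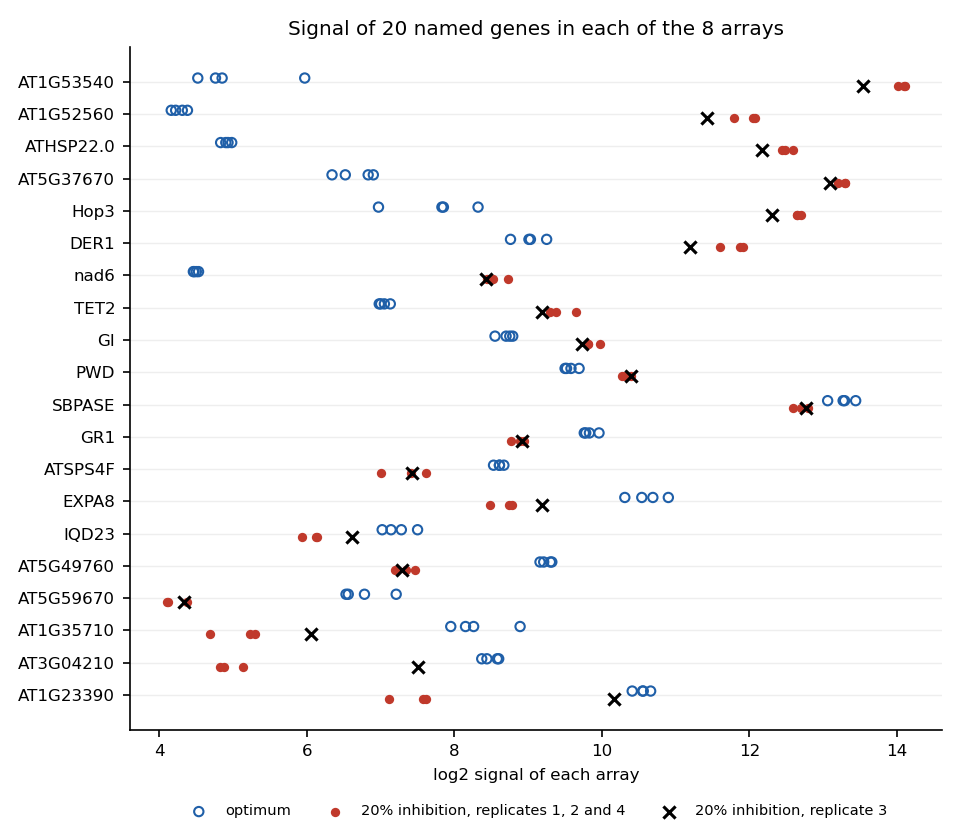
Log2 signal (x axis) of 20 named genes in each of the 8 arrays, with optimum arrays as open circles, 20% inhibition replicates 1, 2 and 4 as filled circles and replicate 3 as a cross. The states do not overlap for any of the 20 genes, and for AT3G04210 (7.51) and AT1G23390 (10.17) replicate 3 sits close to the optimum arrays.

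The chaperones that refold proteins, and their helpers, rose less from a higher level. Of 17 measured genes 14 rose and 0 fell (median 1.80). Most were co-chaperones, beside cytosolic HSP70 and chloroplast chaperonins, and no HSP90 or HSP100 gene was among them. Hop3 (AT4G12400), which passes client proteins from HSP70 to HSP90, read 6.97, 7.83, 8.32 and 7.85 at the optimum and 12.64, 12.65, 12.31 and 12.70 at 20% inhibition (4.84 ± 0.19, adjusted p = 4e-12). The optimum arrays spread over more than 1 log2 unit while those of 20% inhibition lay within 0.4 units of each other. Fes1A (AT3G09350), a partner of cytosolic HSP70, rose by 3.59 ± 0.14, the DnaJ-type co-chaperone AT2G20560 by 3.23 ± 0.12 and the FKBP-type isomerase AT5G48570 by 3.22 ± 0.16. Cytosolic HSP70 itself rose less, with 1.04 ± 0.09 for AT3G09440 and 1.73 ± 0.14 for Hsp70-2 (AT5G02490), as did the chloroplast chaperonins Cpn60beta2 (1.82 ± 0.06) and Cpn60beta3 (1.80 ± 0.15). The co-chaperone Hop1 (0.09), the chaperonin Cpn60beta4 (0.06) and the DnaJ-type AT1G59725 (0.04) did not pass. The list also held AT5G12110, known as a subunit of translation elongation factor 1B, which rose by 2.83 ± 0.15.

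Several of these genes had gained as much or more at the preceding step. AT5G48570 had changed by 5.46 from baseline to optimum and AT2G20560 by 4.41. For AT5G48570 the step to 20% inhibition was smaller than the preceding one (adjusted p = 3.3e-05 for the difference). Its mean of 13.86 at 20% inhibition was near the highest signal of the arrays (14.7), which limits what size of rise can be seen at this and the following step. Fes1A had changed by 3.13 before and Hop3 by 3.56, and the 2 steps differed for Hop3 (adjusted p = 0.01) but the difference did not pass for Fes1A (0.18). Of the 17 genes 8 differed from the preceding step and 13 from the following one, over which the list's median was −0.15.

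Genes of protein folding in the endoplasmic reticulum moved as a group: 10 of 10 measured members rose (median 1.27). DER1 (AT4G29330), a derlin that helps to pull misfolded proteins out of the compartment, read 8.76, 9.03, 9.25 and 9.01 at the optimum and 11.60, 11.91, 11.19 and 11.87 at 20% inhibition (2.63 ± 0.13, adjusted p = 1e-10). The co-chaperone ATERDJ3B (AT3G62600) rose by 1.78 ± 0.08 and the calreticulin CRT1b (AT1G09210), a lectin chaperone, by 1.38 ± 0.08. All 3 bZIP factors of the response to unfolded proteins rose: BZIP28 (AT3G10800) by 1.16 ± 0.06, BZIP17 (AT2G40950) by 0.94 ± 0.09 and BZIP60 (AT1G42990) by 0.74 ± 0.09. BZIP28 read 8.48 to 8.58 at the optimum and 9.61 to 9.73 at 20% inhibition. From baseline to optimum it had changed by 0.81, and the step described here was the larger (adjusted p = 0.025). Of the 10 genes 7 differed from the preceding and 9 from the following step. In replicate 3 the group stood a median of 0.28 below the other 3 arrays.

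Other large rises fell outside these lists. AT1G72660, a GTP-binding protein of the DRG type, read 4.52 to 4.78 at the optimum and 10.92 to 11.33 at 20% inhibition (6.52 ± 0.11), and it had changed by 0.05 at the preceding step. AT1G71000, with a DnaJ domain, rose by 5.72 ± 0.16, AT5G25450, a small subunit of the mitochondrial cytochrome bc1 complex, by 5.18 ± 0.11 and AT1G21550, with calcium-binding EF hands, by 4.64 ± 0.15. AT5G25450 read 7.67 to 7.97 and then 12.73 to 13.20, with no overlap. Among the 15 largest rises were also AT4G23493 (5.17), AT4G19430 (4.91) and AT5G10695 (4.71).

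Transcripts encoded in the mitochondrial genome rose at this step. Of 16 measured genes 15 rose and 0 fell (median 2.06; 14 without replicate 3), against medians of −0.09 at the preceding and 0.19 at the following step. nad6, a membrane subunit of respiratory complex I, read 4.47, 4.46, 4.53 and 4.50 at the optimum and 8.44, 8.73, 8.43 and 8.52 at 20% inhibition (4.04 ± 0.10, adjusted p = 1.1e-14). The complex I subunits nad4L (3.94 ± 0.11), nad5 (3.45 ± 0.13) and nad9 (2.97 ± 0.12), the cytochrome oxidase subunits cox2 (2.58 ± 0.08) and cox1 (2.45 ± 0.12) and the maturase matR (1.86 ± 0.11) rose too. Others moved little: nad4 rose by 0.58 ± 0.09 and nad7 by 0.30 ± 0.07, and nad2 did not pass (0.05). AT2G07722 (4.73 ± 0.11) lies in the stretch of chromosome 2 that carries a nuclear copy of mitochondrial DNA, and its probe set cannot tell the copies apart. The probe set of nad6 is of the same type (_s_at), which may read several transcripts. Whether nuclear copies add to its signal, or to that of the other mitochondrial genes, was not tested. Nuclear genes for the respiratory enzyme succinate dehydrogenase moved by less and not in 1 direction. SDH1-1 (AT5G66760) fell by 0.81 on the log2 scale and SDH2-1 (AT3G27380) by 0.40, SDH2-2 did not pass (−0.06), and SDH1-2 (AT2G18450) rose by 0.18, a call that ended without replicate 1 of 20% inhibition (adjusted p = 0.056) or replicate 2 of the optimum (0.052), in the fits on 8 and 7 arrays (0.057 and 0.11) and after repeated quantile normalisation (0.073). The 3 nuclear subunits of the plastid NDH complex in the same list, NdhL, NdhS and NdhN, fell by 0.30, 0.27 and 0.41 on the log2 scale.

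The signal of the array's 25S ribosomal RNA control, a transcript without a poly(A) tail, moved in some of the same arrays. It read 6.19, 5.53, 5.91 and 6.31 at the optimum and 12.99, 10.42, 5.25 and 12.88 at 20% inhibition, so 3 of the 4 later arrays stood above the optimum and replicate 3 did not. The difference of 4.40 did not pass an exact permutation test (2-sided p = 0.143, adjusted over 6 array measures 0.206; the smallest p that 70 assignments can give is 0.0286). Baseline arrays ran from 5.55 to 6.41 and those of 30% inhibition from 8.67 to 11.4. The mean signal of the 16 mitochondrial genes was 7.52, 7.66, 7.50 and 7.66 on the 4 arrays of 20% inhibition and 5.65 to 5.78 at the optimum. Replicate 3, with its 25S signal at the level of the optimum, had a mitochondrial mean within 0.2 log2 units of the other 3. With the 25S signal as a covariate, 13 of the 16 rose (median 2.07). Within a state the 25S signal spread most at 20% inhibition (SD 3.62 against 0.35 at the optimum), where replicate 3 stood apart. The covariate fit therefore leans largely on that array. The part of the 25S signal, which overlaps with the state, in the mitochondrial rise was not tested. In that fit 14 of 17 chaperone and co-chaperone genes, 9 of 10 endoplasmic reticulum genes and 6 of 11 autophagy genes rose. The falls described further on came to 2 of 4 Calvin-Benson genes, 2 of 5 photorespiration genes, 2 of 5 histones and 4 of 11 prenylated RAB acceptors. Over all 22746 probe sets the covariate fit also called fewer, 3097 higher and 3834 lower, against 4269 and 5208 without the covariate.

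Genes encoded in the chloroplast did not follow those of the mitochondrion. Of 69 measured genes 0 rose and 26 fell (median −0.27; 1 rose and 19 fell with arrays centred). The falls were most frequent among genes for the plastid RNA polymerase, ribosome and maturation (15 of 22, median −0.36; 13 without replicate 3, 12 with arrays centred). Among photosynthesis genes 7 of 33 fell (median −0.19; 3 with arrays centred), a share close to the 20% over all genes. The difference between these lists was not tested. The ribosomal protein gene rpl22 read 12.40 to 12.53 at the optimum and 11.87 to 12.00 at 20% inhibition (−0.54 ± 0.07, adjusted p = 5.6e-06). ndhH, a subunit of the plastid NDH complex of cyclic electron flow, fell by 1.22 on the log2 scale (SE 0.26), from 9.42 to 9.98 to 7.68 to 9.17, a wide spread within both states. The large Rubisco subunit gene rbcL read 10.20, 9.19, 9.70 and 9.86 and then 10.32, 9.89, 8.56 and 9.81, and did not pass (−0.09 ± 0.30). With the 25S covariate 15 of the 69 fell and 1 rose. Of 13 nuclear OTP and CRR genes, most of which encode proteins that edit or process organelle RNA or build the NDH complex, 6 fell and 0 rose (median −0.20), among them CRR21 (AT5G55740; −1.07 ± 0.15) and OTP84 (AT3G57430; −0.44 ± 0.09).

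**Figure D3:**
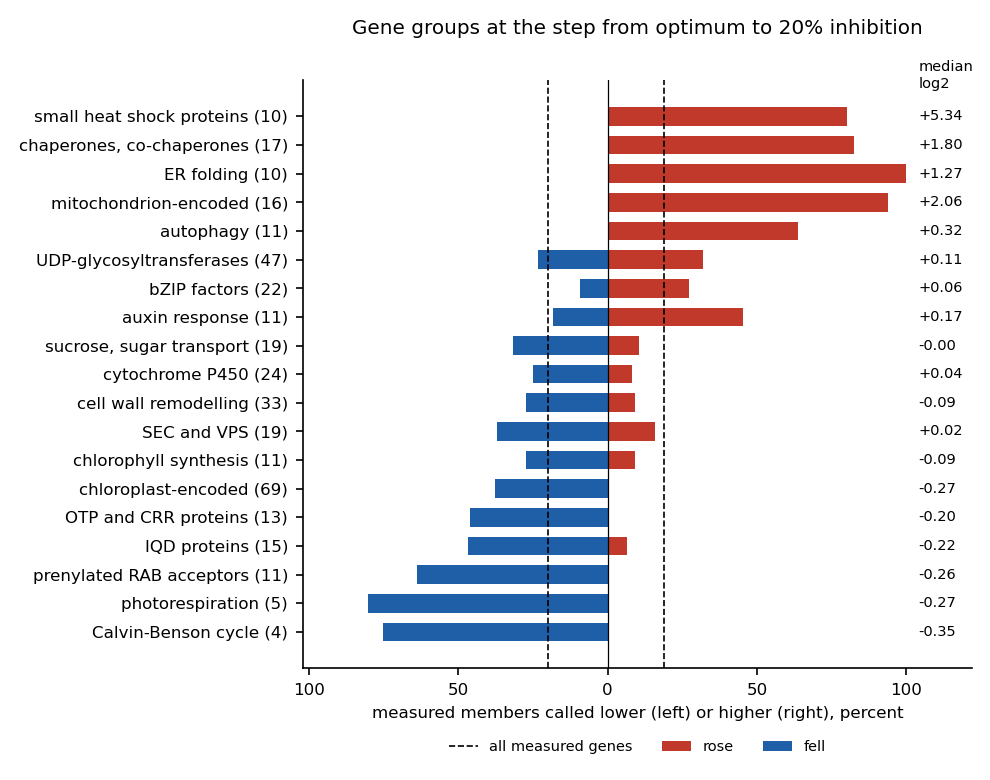
Share of measured members called higher (right) or lower (left) at 20% inhibition against the optimum in 19 gene groups, in percent, with the number measured in brackets and the median log2 change at the right. Dashed lines mark the shares over all 13355 named genes, 19% higher and 20% lower.

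Nuclear genes of carbon fixation and photorespiration fell by small amounts. Of 4 measured Calvin-Benson genes 3 fell and 0 rose (median −0.35). Sedoheptulose-bisphosphatase SBPASE (AT3G55800), which helps to regenerate the Rubisco substrate, read 13.44, 13.27, 13.29 and 13.06 and then 12.70, 12.79, 12.76 and 12.59 (−0.56 ± 0.08, adjusted p = 3.5e-05). Phosphoribulokinase PRK (AT1G32060) fell by the same log2 amount (−0.56 ± 0.08), and for both the states did not overlap. RCA changed by −0.15 ± 0.04 (adjusted p = 0.015), a call that ended with arrays centred (−0.08, 0.18), with the 25S covariate (0.11), in fits on the 8 arrays of both states (0.060) or on those without replicate 3 of 20% inhibition (0.071) and after repeated quantile normalisation (0.12). Its signal is close to the upper limit, which limits what size of change can be seen. Of 5 photorespiration genes 4 fell (median −0.27), among them the glycine cleavage subunit AT1G11860 (−0.52 ± 0.09) and the hydroxypyruvate reductase HPR (AT1G68010; −0.33 ± 0.07). In 0 of these 9 genes did the step differ from the preceding one, in which SBPASE had changed by −0.29 and HPR by −0.34.

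Genes of the light reactions and of chlorophyll synthesis were called in both directions. Of 8 nuclear photosystem, electron transport and ATP synthase genes 1 rose and 2 fell (median −0.08). PGRL1B (AT4G11960), which takes part in cyclic electron flow around photosystem I, read 8.56 to 8.74 at the optimum and 9.41 to 9.56 at 20% inhibition (0.83 ± 0.06, adjusted p = 9.4e-09), more than at the preceding step (0.14, adjusted p = 0.00017 for the difference). The ATP synthase subunit ATPC1 (AT4G04640) fell by 0.27 on the log2 scale. Of 3 antenna genes 1 fell, LHCB4.3 (AT2G40100; −0.50 ± 0.13). Of 11 chlorophyll synthesis genes 1 rose and 3 fell (2 without replicate 3; 2 rose and 1 fell with arrays centred), among them the methyltransferase CHLM (AT4G25080; −0.37 ± 0.09). PORB (AT4G27440), the light-dependent protochlorophyllide reductase, changed by 0.05 ± 0.09 after 0.90 at the preceding step. The calls of HPR, LHCB4.3 and CHLM ended with the 25S covariate.

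Starch and sugar genes moved in both directions. The 3 members that rose were PWD (AT5G26570), which phosphorylates starch for breakdown, DPE1 (AT5G64860), which recycles short glucans, and the branching enzyme SBE2.2 (AT5G03650; 0.36 ± 0.08). PWD read 9.5 to 9.69 and then 10.27 to 10.39 (0.77 ± 0.06, adjusted p = 2.8e-08) and DPE1 rose by 0.50 ± 0.07. The other 2 of the 5 starch genes, the ADP-glucose pyrophosphorylase subunits APL3 (AT4G39210; −0.52 ± 0.10) and APL4 (AT2G21590; −0.39 ± 0.08), which serve starch synthesis, fell. Of 19 genes for sucrose synthesis and sugar transport 2 rose and 6 fell (4 and 7 without replicate 3, 5 and 6 with arrays centred). The sucrose-phosphate synthase ATSPS4F (AT4G10120) read 8.53, 8.61, 8.67 and 8.61 and then 7.62, 7.41, 7.42 and 7.0 (−1.24 ± 0.17, adjusted p = 1.4e-05), after −1.50 at the preceding and before −0.92 at the following step. SWEET13 (AT5G50800), a sucrose exporter, fell by 1.20 on the log2 scale and SWEET1 (AT1G21460), a glucose transporter, rose by 1.14 ± 0.07. The vacuolar sugar transporter TMT1 (AT1G20840) fell by 0.83 on the log2 scale after a change of 0.94 at the preceding step.

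Of 6 antioxidant enzymes 3 fell and 0 rose. The glutathione reductases, which keep glutathione in its reduced form, fell in both the cytosolic and the organellar isoform. GR1 (AT3G24170) read 9.96, 9.76, 9.78 and 9.83 and then 8.77, 8.94, 8.92 and 8.89 (−0.95 ± 0.08, adjusted p = 8.9e-08), a larger fall than at the preceding step (−0.50, adjusted p = 0.031 for the difference). GR (AT3G54660) changed by −0.76 ± 0.09. Among 22 glutaredoxins, thioredoxins and glutathione transferases 3 rose and 7 fell (3 and 6 without replicate 3, 6 and 5 with arrays centred, when the median turned from −0.018 to 0.050), with GSTU27 (AT3G43800; −1.42 ± 0.16) and the mitochondrial thioredoxin TO2 (AT1G31020; −0.68 ± 0.09) lowest.

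**Figure D4:**
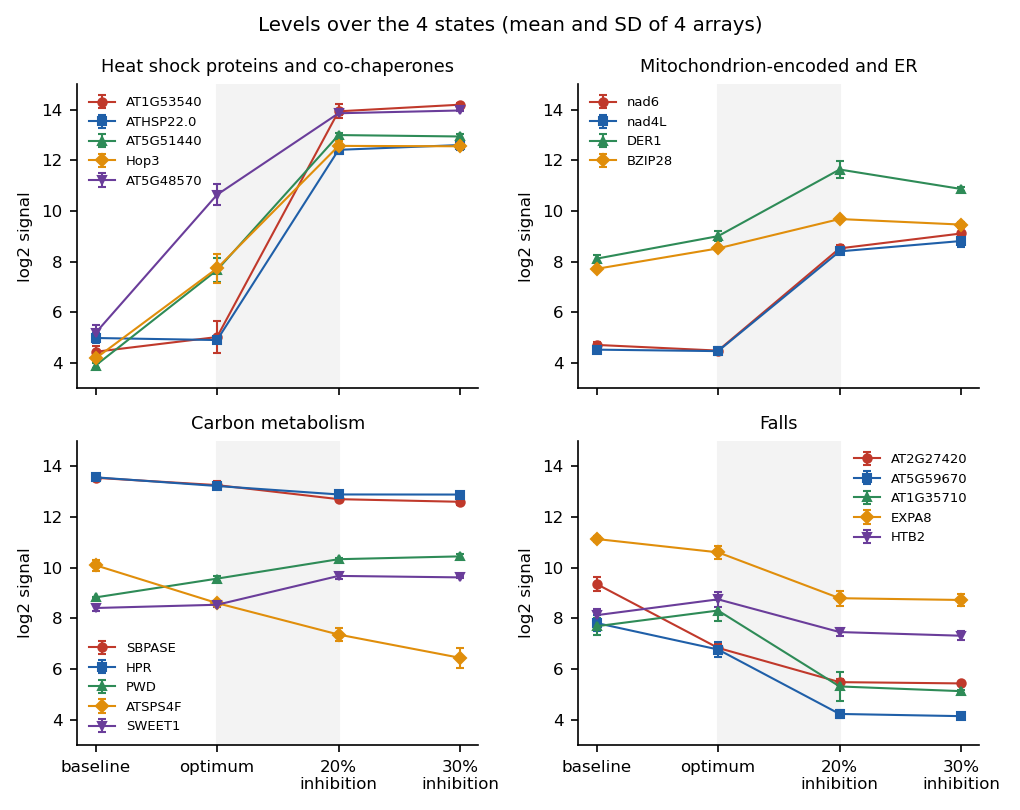
Log2 signal (y axes, mean and SD of 4 arrays) of 19 named genes at baseline, optimum, 20% and 30% inhibition, with the step from optimum to 20% inhibition shaded. ATHSP22.0 and nad6 changed by −0.08 and −0.23 before the shaded step and by 7.51 and 4.04 in it, while AT5G48570 had changed by 5.46 before it.

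Of the 15 largest falls among probe sets assigned to 1 gene, 4 were in genes of leucine-rich repeat receptor kinases, proteins of the cell surface. The type was noticed after the values were seen. The list of receptor-like kinases had 0 measured members, so no share of this large family can be set beside the count. The leucine-rich repeat receptor kinase AT1G35710 read 8.15, 7.95, 8.26 and 8.89 at the optimum and 5.29, 4.68, 6.06 and 5.23 at 20% inhibition (−3.0 ± 0.24, adjusted p = 3.8e-08). The other 3 were AT5G59670 (−2.54 ± 0.15), AT3G28040 (−1.93 ± 0.08) and AT5G49760 (−1.93 ± 0.08). AT5G59670 ended at 4.10 to 4.37, near the lowest signals, where a larger fall could not be seen. AT1G35710 had changed by 0.62 at the preceding step and by −0.19 at the following one, and differed from both (adjusted p = 1.3e-05 and 0.0001).

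Further genes of known families were among the 15 largest falls of probe sets assigned to 1 gene. AT5G55450, of the lipid transfer protein family, changed by −2.69 ± 0.26 and AT5G03350, a legume-type lectin, by −2.41 ± 0.17. AT5G03350 read 11.38 to 12.43 and then 9.18 to 9.70, with no overlap. The oxygenase AT3G19010 (−2.42 ± 0.15), the GDSL-type lipase AT4G28780 (−2.24 ± 0.10) and the purple acid phosphatase AT1G13750 (−2.08 ± 0.13) fell with replicate 3 within 0.5 log2 units of the group mean. The largest fall of all, −4.23, was in a probe set that the annotation assigns to no single gene. AT2G27420, a cysteine protease, read 6.67 to 6.97 and then 5.33 to 5.65 (−1.35 ± 0.11), less than its −2.52 at the preceding step (adjusted p = 0.00046 for the difference).

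Some genes of growth and of the cell's transport system fell, in numbers that depended on the scaling for several lists. Of 33 cell wall loosening and remodelling genes 3 rose and 9 fell (median −0.09), and without replicate 3 the falls numbered 14 (4 rose and 8 fell with arrays centred). With all arrays the share of falls was not far above the 20% over all genes. The expansin EXPA8 (AT2G40610), which loosens the wall of expanding cells, read 10.90, 10.54, 10.69 and 10.31 and then 8.48, 8.78, 9.19 and 8.74 (−1.81 ± 0.15, adjusted p = 3.8e-08), and EXPB1 (AT2G20750) changed by −1.35 ± 0.16. The xyloglucan enzyme EXGT-A3 (AT2G01850) changed by −0.89 with all arrays (adjusted p = 0.051) and by −1.43 without replicate 3 (7.1e-08). Of 15 IQ-domain proteins, which bind calmodulin and microtubules, 1 rose (0 without replicate 3) and 7 fell (median −0.22), with IQD23 (AT5G62070) lowest at −1.03 ± 0.15. Of 5 beta-tubulins 3 fell, TUB7 (AT2G29550; −0.78 ± 0.15), TUB5 (AT1G20010; −0.51 ± 0.09) and TUB9 (AT4G20890; −0.29 ± 0.05), after changes of 0.79, 0.69 and 0.20 at the preceding step. All 5 tubulins differed between these steps. Of 5 histones 4 fell, with the histone HTB2 (AT5G22880) at 8.37 to 9.09 and then 7.35 to 7.66 (−1.29 ± 0.14). With arrays centred 3 histones fell and 1 rose. The mean of 3 measured markers of dividing cells, of 9 listed, was 5.16 to 5.81 at the optimum and 5.08 to 5.33 at 20% inhibition (1 of 3 fell, median −0.24, after 0.57 at the preceding step), and its part in the falls of histones and tubulins was not tested.

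Among genes of vesicle traffic 7 of 11 prenylated RAB acceptors fell and 0 rose (median −0.26; 4 fell with arrays centred), with PRA8 (AT3G13720) at 8.58 to 8.81 and then 7.05 to 7.62 (−1.36 ± 0.11, adjusted p = 3.3e-08). Of 19 SEC and VPS genes 3 rose and 7 fell (4 and 6 without replicate 3, 5 and 6 with arrays centred). The members that fell included the exocyst subunits SEC15B (AT4G02350; −0.71 ± 0.10), SEC10 (AT5G12370; −0.62 ± 0.07) and SEC6 (−0.40), which tether secretory vesicles at the plasma membrane. Those that rose were VPS60.1 (AT3G10640; 0.88 ± 0.11), VPS60.2 (0.37, a call that ended with the 25S covariate) and VPS2.1 (0.30), subunits of the ESCRT machinery of endosomes.

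Autophagy genes rose. Of 11 measured 7 rose and 0 fell (median 0.32). ATG8D (AT2G05630), one of the small proteins that are attached to the autophagosome membrane, read 7.03 to 7.40 and then 8.28 to 8.73 (1.29 ± 0.14, adjusted p = 1.3e-06), and APG8A (AT4G21980), of the same family, rose by 0.96 ± 0.11. ATG3 (AT5G61500), the enzyme that attaches them to lipid, rose by 0.37 ± 0.05.

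Regulators of hormone and clock pathways changed by moderate amounts. GI (AT1G22770), a clock component that is also needed for flowering in long days, read 8.70, 8.55, 8.79 and 8.75 and then 9.98, 9.81, 9.73 and 9.81 (1.13 ± 0.07, adjusted p = 1.9e-09). The related genes COR27 (AT5G42900; 1.01 ± 0.17) and AT4G33980 (0.50 ± 0.14), of the clock list, rose as well, and TIC (−0.14), not called with all arrays, was called lower without replicate 3. COR27 read 4.14 to 4.27 at the optimum and 4.77, 5.16, 5.95 and 4.95 at 20% inhibition, and it rose by 0.76 without replicate 3, the highest array. Of 11 auxin response genes 5 rose and 2 fell (4 and 1 without replicate 3, 6 and 0 with arrays centred), with the auxin-conjugating enzyme GH3.3 (AT2G23170) up by 1.14 ± 0.19 and the repressor IAA29 (AT4G32280) by 0.74 ± 0.10. Of 3 abscisic acid and dehydration genes 2 rose, COR47 (AT1G20440; 0.85 ± 0.12) and COR15B (AT2G42530; 0.56 ± 0.10), both coding for protective hydrophilic proteins. Of 22 bZIP factors 6 rose and 2 fell (5 and 6 without replicate 3), and beside the 3 factors of the endoplasmic reticulum above bZIP44 (AT1G75390) rose by 1.03 ± 0.13.

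Replicate 3 of 20% inhibition resembled its own state more than the optimum, but less than its fellows did. Its log2 signals correlated with those of the other 3 arrays at 0.9879 to 0.9895, against 0.9949 to 0.9969 among replicates 1, 2 and 4 (Pearson's r over 22746 probe sets, as a description). With the optimum arrays it correlated at 0.9667 to 0.9700, where the other 3 gave 0.9597 to 0.9662. In 313 probe sets it lay more than 1 log2 unit from the mean of the other 3, 286 above and 27 below, while the other 7 arrays had 19 to 65 such probe sets. Of the 313, 294 lay toward the optimum and 220 even past the optimum mean. Among the 286 probe sets, 170 were higher in replicate 3 than in any of the other 15 arrays of the study.

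The shift was not an even one. Across the 9387 probe sets called without it, the slope of its change from the optimum on the change of the other 3 arrays was 0.806, made up of 0.894 for probe sets called higher and 0.598 for those called lower, and 91.6% of them changed in the same direction. Leaving out each of the other 7 arrays in turn gave slopes of 0.956 to 1.04 and 97.7% to 99.1%. In those arrays the slopes were 0.968 to 1.06 for probe sets called higher at 20% inhibition and 0.89 to 1.14 for those called lower. Both values of replicate 3 lay below these ranges, by more for the probe sets called lower. Of the 286 probe sets far above in replicate 3, 242 were called lower and 6 higher without it. For the small heat shock proteins and chaperones the median of replicate 3 lay 0.16 and 0.22 below the other arrays, next to changes of 5.34 and 1.80.

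The genes farthest above in replicate 3 were EXLA1 (AT3G45970), an expansin-like wall protein, AT5G61590, an ERF-type transcription factor, EXO (AT4G08950), a secreted protein named for exordium, AT1G23390, a Kelch-repeat F-box protein, and the pectin methylesterase ATPMEPCRB (AT4G02330). EXLA1 read 6.07, 6.18 and 6.37 in replicates 1, 2 and 4 and 9.95 in replicate 3, against 7.62 to 8.73 at the optimum. EXO read 7.08, 7.24 and 7.47 against 10.79, above all 4 optimum arrays (7.15 to 8.34). EXLA1 was not called with all arrays (−1.26 ± 0.61, adjusted p = 0.11) and fell by 2.19 on the log2 scale without replicate 3 (1.8e-06). AT5G61590 was called either way, at −1.57 (adjusted p = 0.033) and −2.48 (3.3e-10), although the first call ended when any of replicates 1, 2 or 4 of 20% inhibition or 1, 3 or 4 of the optimum was left out (0.061 to 0.11), in the fit on 8 arrays (0.12), with a robust prior (0.053) and with the 25S covariate, which turned its sign. AT1G23390 read 7.11, 7.62 and 7.57 against 10.17 and was called lower with and without it, at −2.43 and −3.11.

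The genes farthest below in replicate 3 were AT1G48330, rbcL, AT3G22090, AT5G47060 and AT1G47400. AT1G48330 read 8.05, 8.10 and 8.04 in the other 3 arrays and 6.41 in replicate 3, below the optimum arrays (6.89 to 7.40), and it rose without that array (0.95, adjusted p = 3.8e-06) but was not called with all arrays (0.54, 0.13). AT3G22090 rose either way, by 3.76 ± 0.25 and, without it, by 4.11. AT5G47060 rose by 0.76 (adjusted p = 0.017), a call that ended without replicate 2 or 4 of 20% inhibition (0.061 and 0.063). AT1G47400 rose by 1.03 (0.039), a call that ended without replicate 1 or 2 of 20% inhibition or 2 or 3 of the optimum (0.095 to 0.13) and with a robust prior (0.060). Both calls also ended in the fit on 8 arrays (0.064 and 0.081) and with the 25S covariate (0.74 and 0.47).

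**Figure D5:**
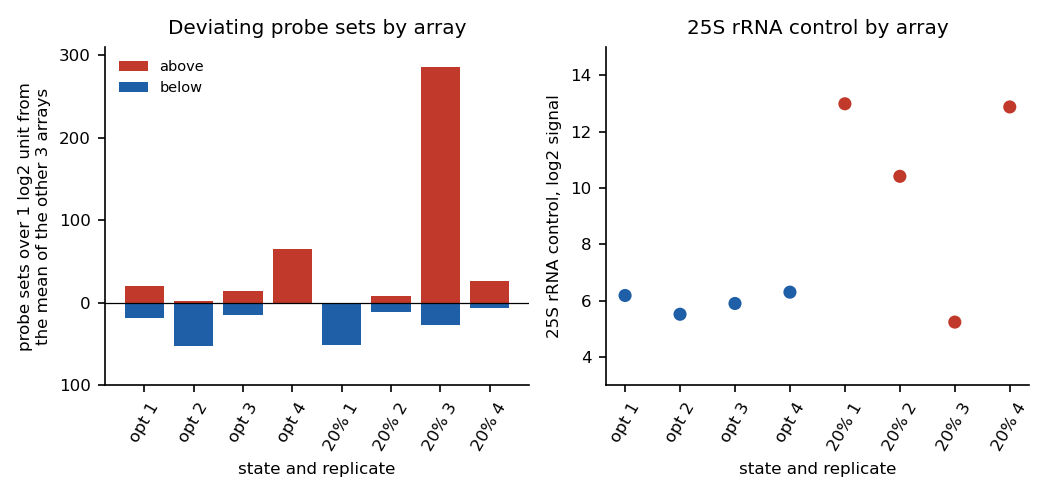
Left, number of probe sets in which each of the 8 arrays lies more than 1 log2 unit above (red) or below (blue) the mean of the other 3 arrays of its state; right, log2 signal of the 25S rRNA control in each array. Replicate 3 of 20% inhibition has 286 probe sets above and 27 below, and its 25S signal (5.25) is at the level of the optimum arrays (5.53 to 6.31).

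The array also differed in its 25S control (5.25 against 10.42 to 12.99), and the part of that signal in the shift was not tested. Its array median (6.13) was the highest of its state (6.07 to 6.10 in the others). So were its 3′ minus 5′ differences for the actin and GAPDH controls (2.44 and 0.85), by little (2.17 to 2.33 and 0.58 to 0.81 in the others). The difference for ubiquitin (1.27) lay within the range of the other 3 (1.25 to 1.32). The part of these measures in the shift was not tested. Without replicate 3 the calls numbered 9387, 4060 higher and 5327 lower, and 8533 of these were also called with it. In 944 probe sets the call needed replicate 3, in 854 it appeared only without it, and 0 of the shared calls turned in direction. Falls of at least 4-fold were 64 without it and 43 with it, while rises of at least 4-fold were 198 and 188.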

How the data were processed

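Leaf RNA of 16 samples (6 µg each) was labelled and hybridised to Affymetrix arrays. The deposited values are log2 signals, 1 per probe set and array, made with RMA; limma is the other tool listed, both per the submitters' processing notes and with versions not given in the sources used here. RMA corrects background, equalises arrays by quantiles and summarises probes, which narrows differences that run through whole arrays. They were used as deposited. Of 22810 probe sets 64 were controls. The annotation gave 13513 probe sets 1 gene, 503 several and 8730 none, so lists count only named genes (RefSeq TAIR10.1 names), and loci not counted may still be on the array.

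One limma model (R 4.3.3, limma 3.58.1) with 4 group means was fitted to 16 arrays and tested 2-sided for 20% inhibition minus optimum, and for the difference of this step from the preceding and following steps, with Benjamini-Hochberg adjustment over 22746 probe sets. Successive steps share arrays. The number of arrays limits precision. Simulated data were used to test the script. A gene measured by several probe sets counts through the brightest.

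Members, 64 gene lists and 34 symbol-family or organelle lists added once the annotation was known were chosen with earlier results of these data known. Named genes were taken from the 15 largest rises and falls, 2 rises and 2 falls per list, 5 genes farthest above and below in replicate 3, and 5 fixed genes. Further list members are named to complete a group and were chosen after their values were seen. Roles are background knowledge and not in the files. Of the lists, 69 had at least 3 measured members; heat shock factors had 0.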

Additional observations from a re-analysis of the deposited data

Results flagged for a closer look

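Within 4 arrays of 1 state, 1 array stood far from the other 3 in 31 of 420 groups examined, by Dixon's ratio at its 95% critical value; chance flags about 1 group in 20. Of these, 22 were at 20% inhibition, 15 of them in replicate 3, and 9 at the optimum. Of the 15, 6 were among the 10 genes named because replicate 3 lay farthest from its group, so that part of the count follows from their choice.

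Replicate 3 of 20% inhibition was the high array for AT3G04210 (7.51), AT1G55450 (7.79), AT1G23390 (10.17), AT1G49500 (10.81), RALFL24 (7.46), EXLA1 (9.95), AT5G61590 (9.95), EXO (10.79) and ATPMEPCRB (7.32). The TIR-domain gene AT3G04210 read 4.82 to 5.13 in the other 3 arrays and the methyltransferase AT1G55450 5.94 to 6.02. Both were called lower than the optimum with that array (−2.92 and −2.65) and without it (−3.56 and −3.10). Replicate 3 was the low array for Hop3 (12.31), AT4G29520 (10.44), COR47 (11.92), UBP18 (7.56), XTH32 (9.19) and AT1G48330 (6.41).

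The other arrays of 20% inhibition stood apart for LHCB4.3 (9.82, replicate 4), PRA1.F1 (5.25, replicate 1), and, in replicate 2, bHLH115 (8.45), ALDH10A8 (10.63), GLR1.4 (4.47), rpoB (6.02) and the 3′ minus 5′ difference of the GAPDH control (0.58 against 0.81 to 0.85).

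At the optimum the array apart was replicate 1 for CYP71B23 (4.90), TET3 (9.52) and ndhH (9.98), replicate 2 for bHLH121 (7.77), UGT85A2 (7.56) and EXLA1 (7.62), replicate 3 for AT3G19850 (8.53), and replicate 4 for CHLM (11.80) and CHR17 (8.35).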

How the results depend on the processing

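The 9477 calls between 20% inhibition and optimum became 9238 with the replicate number as a block 6931 to 11476 under the other refits, leave-one-array-out values of 8363 to 9387 included, and 6764 at an adjusted p under 0.01. Same-numbered optimum and 20% arrays deviated together with correlations of 0.0964, 0.257, 0.0853 and 0.311, and differently numbered arrays were not compared. Over all arrays the consensus correlation within replicate numbers was −0.033. The numbers were not taken to pair samples. A 2-fold minimum left 1143 calls and 1 probe set per gene 5138, since fewer qualify or are tested. With arrays centred, the share of higher calls went from 45% to 62.1%, from 43.2% to 63.5% for the difference from the preceding step, and from 41.6% to 61% for that from the following step. Those differences numbered 3678 to 5734 and 3981 to 5270 without single arrays.

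With the 25S covariate, chosen after seeing the data, 48 of 199 called named genes lost the call, and the log2 change turned for IAA18 (0.034), EXLA1 (0.51), AT5G61590 (0.28), ATPMEPCRB (0.36) and AT1G48330 (−0.24); the cause was not tested. That covariate overlaps with the state and, within states, leans largely on replicate 3 of 20% inhibition. Without replicate 3 of 20% inhibition 187 of the 199 kept the call, and EXO (−0.40) and rbcL (0.27) turned, as they did in a fit of only the 7 arrays left, also chosen after seeing the data. rbcL also turned with array weights (0.14) and without optimum replicate 1 (0.06), and without single arrays EXO ranged from −0.40 to 0.84 and rbcL from −0.32 to 0.27. The ubiquitin control's 3′ minus 5′ difference ranged from −0.004 to 0.040 and was below 0 without optimum replicate 1. The median of the trichome birefringence-like family was −0.06, and 0.012 with arrays centred. Leaving out the dimmest 33.3% of probe sets dropped 22 named genes from the test.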

Other observations

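Several families outside the lists above had members that changed, in several of them in shares close to those over all genes (19% higher, 20% lower). Among 47 UDP-glycosyltransferases, which attach sugars to small molecules, 15 rose and 11 fell (median 0.11; 14 and 11 without replicate 3, 21 and 10 with arrays centred), with UGT73B1 (AT4G34138) up by 0.97 ± 0.13 and UGT74D1 (AT2G31750) down, at −1.20 ± 0.09. Of 15 tetraspanins, membrane scaffold proteins, 3 rose and 3 fell (4 fell without replicate 3). TET2 (AT2G19580) read 7.0, 7.13, 6.98 and 7.05 at the optimum and 9.29, 9.38, 9.19 and 9.65 at 20% inhibition (2.34 ± 0.12, adjusted p = 1.5e-10), after −0.05 at the preceding step. Of 29 serine carboxypeptidase-like genes 3 rose and 9 fell (5 and 10 without replicate 3, 7 and 9 with arrays centred). Of 22 trichome birefringence-like genes, which acetylate wall polymers, 3 rose and 7 fell (2 and 7 without replicate 3). Of 24 cytochrome P450 genes 2 rose and 6 fell (1 and 7 without replicate 3), and with arrays centred 8 rose and 5 fell. Centring raised the rises over all probe sets as well, from 4269 to 7129 of 22746.

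Fewer members were measured in other families. Of 12 ubiquitin-specific proteases 1 rose and 4 fell (1 and 3 without replicate 3, 3 and 2 with arrays centred), with UBP21 (AT5G46740) at −1.02 ± 0.13. Of 8 glutamate receptor-like channels 1 rose and 3 fell (1 and 1 with arrays centred), with GLR2.7 (AT2G29120) at −1.15 ± 0.12. Of 6 CLE peptides 3 fell and 0 rose, and of 11 RALF-like peptides 2 rose and 3 fell (1 and 4 without replicate 3, 5 and 3 with arrays centred). In the glucosinolate list UGT74B1 (AT1G24100) changed by −0.71 ± 0.09 and then by 0.67 from 20% to 30% inhibition, and the difference between the steps passed (adjusted p = 9.4e-06). The MAP kinase ATMPK8 (AT1G18150) read 7.77 to 8.01 at the optimum and 6.75 to 7.10 at 20% inhibition (−0.99 ± 0.09).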
